A study of Mus musculus with 8 samples.

Results

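Border and perivascular macrophages are resident macrophages that sit in the meninges, the choroid plexus and the sleeve around blood vessels of the central nervous system, outside the tissue in which microglia live. They share the general macrophage genes with microglia but also carry scavenger receptors and lectins that homeostatic microglia largely lack, and they take up material from blood and cerebrospinal fluid. In bulk tissue their genes are therefore used as markers of the border compartment. The genes described here are 9 of the 55291 in the count table, chosen by name as markers of these cells: Mrc1, Cd163, Lyve1, Stab1, Clec10a, Folr2, F13a1, Pf4 and Cbr2. All 9 passed the filter on low counts.

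All are protein-coding genes on different parts of the mouse genome (GRCm38, whole gene spans from GENCODE M21). On the plus strand lie Mrc1 at chr2:14229392-14332057, Pf4 at chr5:90772435-90773383, Cd163 at chr6:124304656-124330527 and Clec10a at chr11:70156197-70170834. On the minus strand lie Folr2 at chr7:101839988-101857194, Lyve1 at chr7:110850607-110863239, Cbr2 at chr11:120729489-120732114, F13a1 at chr13:36867178-37050244 and Stab1 at chr14:31139013-31168641. Counts were summed over the exons of each gene.

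RNA was sequenced from the lumbar spinal cord of 8 male C57BL/6J mice that all carried the SOD1G93A transgene, a mutant human superoxide dismutase used to model amyotrophic lateral sclerosis, and 1 copy of Cre in the Cx3cr1 locus. In 4 mice both Ager alleles, which encode the receptor RAGE, were floxed (Ager fl/fl, called Ager-deleted here: E1776, then E5231, E5248, E5568), and in 4 mice Ager was wild type (Ager +/+, the Cre controls: E5386, then E5642, E6578, E6732). The labels give the age of every mouse as 120 days and tamoxifen as 5 injections of 0.2 µg at 12 weeks. The paper's text gives another age for tamoxifen and places the collection of tissue at end stage. Because Cre replaced 1 Cx3cr1 copy in both genotypes, every mouse was heterozygous for Cx3cr1, and because Cx3cr1 is not restricted to microglia, Cre could also act in border macrophages. Whole cord was used, so fewer cells of a type and less RNA per cell cannot be told apart.

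Each mouse gave 1 library of 31148047 to 40324897 gene counts, and values below follow the order of mice just given. Ager was at 0.889, 1.51, 1.02 and 1.34 CPM (gene counts scaled to a common library size, TMM-normalized) where Ager was deleted and at 1.53, 2.22, 2.18 and 2.41 in the controls, which did not overlap (log2 fold change of −0.81, SE 0.22, edgeR exact test adjusted p = 0.252). Some libraries stood apart. The summed CPM of 15 skeletal muscle genes was 1212 in control E5386 and 1772 in control E5642 and 124 to 150 in the other 6 mice, and 3 of these genes, Myh4, Ckm and Atp2a1, passed the exact test (log2 fold changes of −6.10, −5.97 and −6.39, adjusted p = 0.0105, 0.0281 and 0.0294). The summed CPM of 12 liver genes was 686 in control E6732 and at most 12.8 in the others. Defining macrophage genes were present in every mouse: C1qa, a complement component, was between 319 and 724 CPM, and the mean of Cx3cr1 was 97.1 ± 22.7 CPM with Ager deleted and 100.4 ± 7.85 in controls (SD, n = 4 each).

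The question for the 9 genes was whether deletion of Ager in Cx3cr1-expressing cells was accompanied by a different level of border macrophage transcripts. No member passed the test. By edgeR's exact test, 0 of 9 had an adjusted p under 0.05, where 14 of 19470 genes did (0.0719%), and by the quasi-likelihood test 0 of 9, where 1 gene did (0.00514%). At an unadjusted p under 0.05 the members again numbered 0, by the exact test (4.26% of all genes) and by the quasi-likelihood test (6.71%). DESeq2 and limma-voom likewise called 0 of the 9. For 0 members did the 4 Ager-deleted mice lie wholly to one side of the 4 controls, which 3.88% of all genes did. Log2 fold changes, Ager-deleted over control, were below 0 for 8 of the 9, with a median of −0.14 against 0.0069 over all tested genes, and their direction was not a test.

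Among the scavenger receptors, Mrc1, the mannose receptor CD206, was at 5.36, 10.3, 12.1 and 9.54 CPM with Ager deleted, against 4.02, 13.3, 13.5 and 13.7 in the controls. Of the 4 controls, 3 were above every Ager-deleted mouse and E5386 was below all of them. The means were 9.32 ± 2.85 and 11.1 ± 4.75 CPM (SD, n = 4 each), and the log2 fold change was −0.26 (SE 0.36, 95% interval −1.13 to 0.62). The difference of mean log2(CPM + 1) was −0.16 (exact permutation p = 0.571).

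Cd163, the haptoglobin-haemoglobin scavenger receptor, was at 4.85, 7.01, 7.03 and 6.88 CPM in Ager-deleted mice and at 3.09, 7.997, 9.85 and 5.25 in controls. The deleted mice were within the control range, and the means of 6.44 ± 1.06 and 6.55 ± 2.98 CPM (SD, n = 4 each) differed by a log2 fold change of −0.022 (SE 0.30; 95% interval −0.75 to 0.71). The difference of mean log2(CPM + 1) had the other sign, at 0.062. Stab1, stabilin-1, a multifunctional scavenger receptor of macrophages and sinusoidal endothelium, was the most abundant of the 9 per transcript length.

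Stab1 was at 37.5, 36.9, 43.1 and 36.3 CPM in Ager-deleted mice and at 26.7, 53.4, 46.8 and 43.0 in controls. The deleted mice were tightly grouped, with a coefficient of variation of 8.18%, while that of the controls was 26.7%, and E5386 was the lowest and E5642 the highest of the 8 mice. The log2 fold change was −0.14 (SE 0.17; 95% interval −0.57 to 0.28), the narrowest interval of the 9. Stab1 overlaps Nt5dc2 on the opposite strand (7.12 CPM on average), and whether the counting used strand is not given in the sources used here.

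Lyve1, a hyaluronan receptor that also marks lymphatic endothelium, was at 0.762, 0.863, 2.20 and 1.71 CPM in Ager-deleted mice and at 0.684, 2.44, 2.44 and 1.53 in controls. In each genotype the values ran over more than a 2-fold range, and the log2 fold change of −0.36 was the largest of the 9 in size and had the widest interval (SE 0.43; −1.41 to 0.70). Clec10a, a galactose-type C-type lectin, was at 0.406, 1.05, 1.13 and 0.905 CPM against 0.410, 1.14, 1.20 and 1.05, from 15 to 43 counts per mouse, with 1 mouse of each genotype well below the other 3 (log2 fold change −0.12, SE 0.37). Reads shared with its close paralog Mgl2 cannot be separated here.

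Folr2, folate receptor beta, which takes up folate in macrophages, had the fewest counts and was the only member with a mean above that of the controls. It was at 0.457, 0.701, 0.395 and 0.284 CPM in Ager-deleted mice and at 0.219, 0.494, 0.585 and 0.438 in controls, from 8 to 26 counts, so that 3 counts alone were worth 0.0729 to 0.0975 CPM. The log2 fold change was 0.093 (SE 0.36; 95% interval −0.78 to 0.96), and Gm10602, which overlaps Folr2 on the opposite strand, averaged 1.43 CPM.

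Of the secreted factors, F13a1, the A chain of coagulation factor XIII, was at 4.06, 9.08, 7.59 and 8.79 CPM in Ager-deleted mice and at 4.92, 12.9, 11.1 and 8.41 in controls. E1776 was the lowest mouse and E5386 next. The means were 7.38 ± 2.30 and 9.32 ± 3.46 CPM (SD, n = 4 each), and the log2 fold change was −0.34 (SE 0.31, 95% interval −1.08 to 0.41). The difference of mean log2(CPM + 1) was −0.28 (exact permutation p = 0.486). Pf4, platelet factor 4, a chemokine of platelets and of border macrophages, was at 0.889, 1.27, 1.21 and 1.71 CPM against 1.07, 1.51, 0.780 and 2.48 (log2 fold change −0.21, SE 0.34).

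The highest Pf4 value, in control E6732, fell in the mouse with the most platelet RNA: Ppbp, another platelet chemokine, was at 5.59 CPM there and at most 3.52 in the other 7 mice. The summed CPM of the 10 platelet markers was 8.46 to 12.4 in Ager-deleted mice and 10.7, 17.0, 9.26 and 21.4 in the controls. The part of platelets in the Pf4 values was not tested.

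Cbr2, a carbonyl reductase that is abundant in border macrophages, was at 1.19, 1.67, 1.44 and 1.37 CPM in Ager-deleted mice and at 0.957, 1.48, 2.05 and 1.39 in controls. All 4 Ager-deleted mice were within the control range, with E5386 below and E6578 above them, and the log2 fold change was −0.043 (SE 0.23; 95% interval −0.60 to 0.52).

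**Figure D1:**
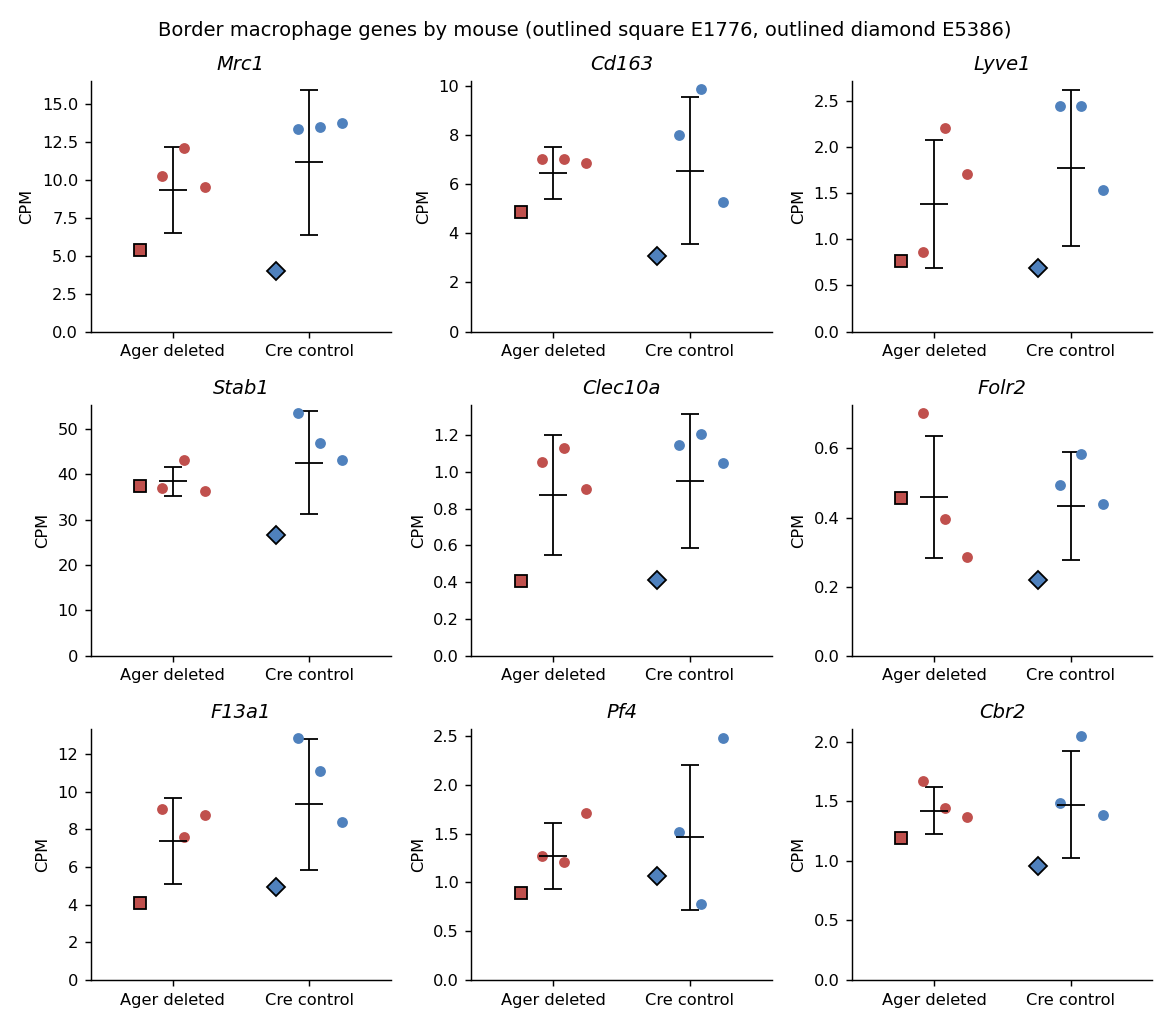
TMM-normalized CPM of each gene in the 4 Ager-deleted mice and the 4 Cre controls, with the mean and SD as bars. The diamond, control E5386, was the lowest of 8 mice for 6 genes, and the square, Ager-deleted E1776, for 2.

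**Figure D2:**
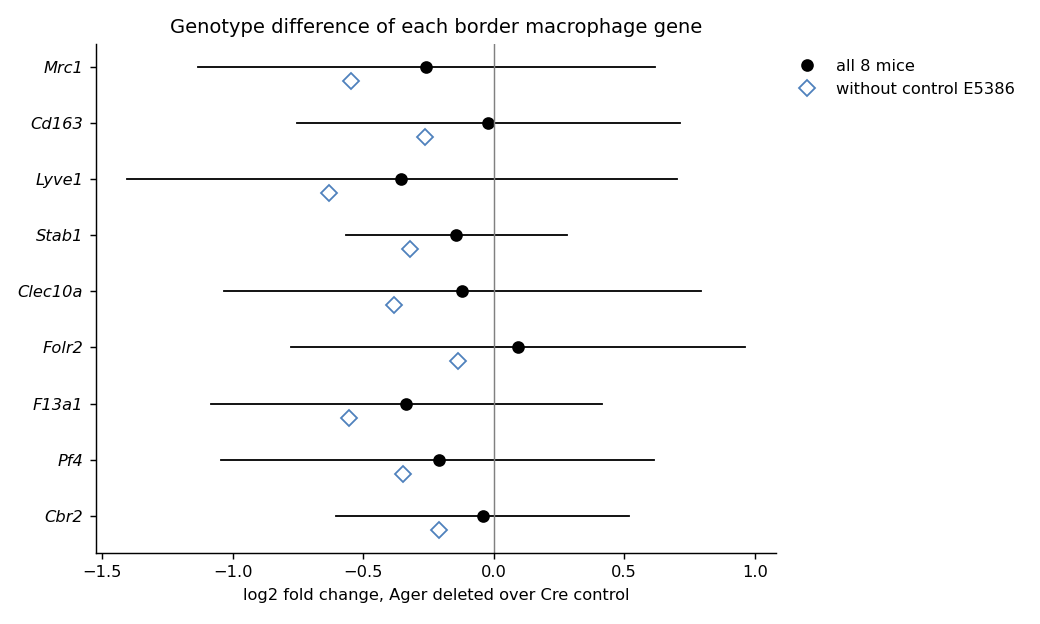
Log2 fold change of each gene, Ager-deleted over Cre control, with the 95% interval of the fit on all 8 mice (filled circles) and without control E5386 (open diamonds). All 9 intervals of the fit on 8 mice include 0. Since E5386 was below the mean of the other 3 controls for every gene, the lower values without it follow from that choice of mouse.

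Per transcript length, the order of the members (RPKM, CPM divided by exon length in kilobases, mean over 8 mice) was Stab1 at 3.93, Pf4 at 1.89, Mrc1 at 1.61, F13a1 at 1.24, Cd163 at 1.19, Cbr2 at 1.09, Lyve1 at 0.541, Clec10a at 0.314 and Folr2 at 0.289. The range over mice of every gene overlapped that of the next in this order. Set against 16 general macrophage genes (the mean log2(CPM + 1) of the list subtracted in each mouse), the genotype difference of the members was between −0.25 (F13a1) and 0.09 (Cd163), each less than the SD over mice of the same quantity in either genotype.

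Across the 9 genes the ratio of the highest to the lowest mouse was 2.00 to 3.57. Control E5386 was the lowest of the 8 mice for 6 members and among the lowest 2 for 8, and Ager-deleted E1776 among the lowest 2 for 7. At the other end, control E6578 was among the highest 2 for 8 members and E5642 for 5. The mean log2(CPM + 1) of the 9 genes was 1.86, 2.26, 2.33 and 2.26 in Ager-deleted mice and 1.70, 2.52, 2.50 and 2.35 in controls. Compared with the mean of the other 3 controls, E5386 was lower by 1.49-fold (Pf4) to 3.36-fold (Mrc1). The coefficient of variation was larger in controls than in Ager-deleted mice for 7 of 9, and for 4 of 9 without E5386, where that of Mrc1 in controls went from 42.6% to 1.75% and that of Stab1 from 26.7% to 10.9%.

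Most members varied together across mice, with Pf4 apart and Folr2 less closely tied. Of the 36 pairs, 33 had a positive Pearson r over the 8 mice (log2(CPM + 1); median r 0.76), and 17 had a Benjamini-Hochberg adjusted p under 0.05 by exact permutation (20 unadjusted); by Spearman's rho the median was 0.68 and the adjusted count 4. The highest pair was Mrc1 with Clec10a (r = 0.97, rho = 0.74, exact permutation p = 0.0021 and 0.046, adjusted p = 0.030 and 0.11), followed by Cd163 with Cbr2 (r = 0.92, rho = 0.90, exact permutation p = 0.0025 and 0.0046, adjusted p = 0.030 and 0.041). The 8 pairs with Pf4 had r between −0.16 and 0.41, where the other 28 had a median of 0.79. The 8 pairs with Folr2 had r between −0.16 and 0.78, and 0 of them had an adjusted p under 0.05 (lowest adjusted p = 0.052, exact permutation), so that all 17 lay among the 21 pairs of the remaining 7 genes. Subtracting each genotype's mean left the median at 0.76. Folr2 held only 8 to 26 counts per mouse. Over the controls alone, its r with the 7 genes other than Pf4 was 0.92 to 0.97. Over the Ager-deleted mice alone it was −0.66 to 0.61.

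These correlations were weaker without the mice at the extremes. Leaving out the 2 mice farthest from the median of the first gene of each pair, the median r was 0.43 and 0 of 36 pairs had an adjusted p under 0.05. For 19 pairs those mice were E1776 and E5386. Leaving out those 2 mice throughout gave a median r of 0.39, positive in 28 of 36 pairs, and the points share 1 normalization and 1 library each. Dropping the most extreme mice narrows the range of values and by itself tends to lower r. Fewer mice also limit how small an exact p can be. The fall from 17 pairs to 0 therefore does not measure how far the correlations rest on single mice.

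**Figure D3:**
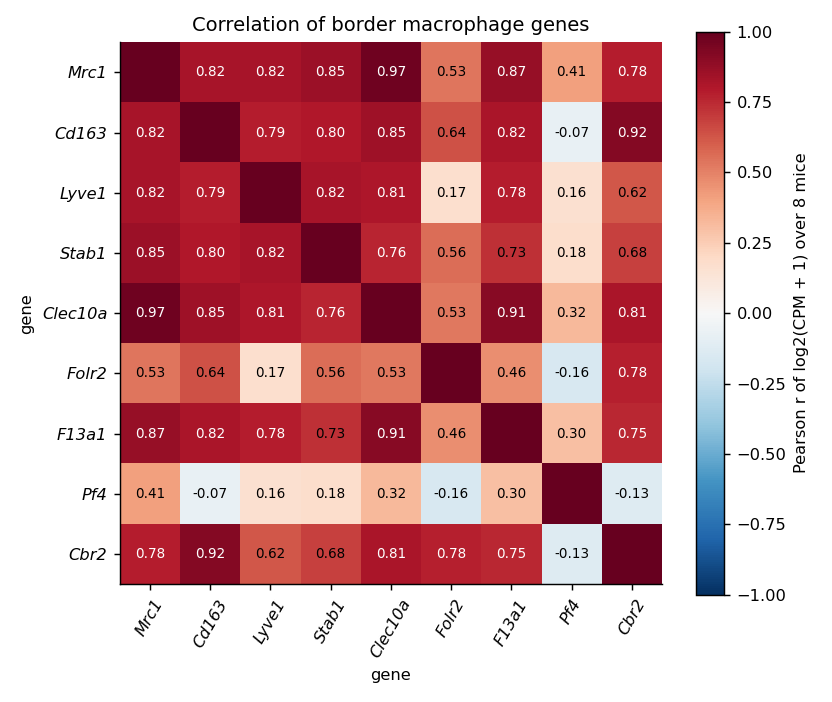
Pearson r over 8 mice of log2(CPM + 1) for each pair of genes, from −1 (blue) to 1 (red). Mrc1, Cd163, Lyve1, Stab1, Clec10a, F13a1 and Cbr2 formed a block of values between 0.62 and 0.97, the row of Pf4 ran from −0.16 to 0.41, and that of Folr2 from −0.16 to 0.78.

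Promoters are shown for genes of this block, Mrc1, Stab1 and F13a1, and for Pf4, which stood apart. PU.1 and MAF family factors are known to act in macrophages. Each line gives the 250 bases upstream of the annotated RefSeq start on GRCm38.p6, 5′ to 3′, with matches to GAGGAA (the PU.1 core) or TGCTGA (a MAF half-site) on either strand in capitals.
Mrc1, chr2:14229164-14229413, plus strand: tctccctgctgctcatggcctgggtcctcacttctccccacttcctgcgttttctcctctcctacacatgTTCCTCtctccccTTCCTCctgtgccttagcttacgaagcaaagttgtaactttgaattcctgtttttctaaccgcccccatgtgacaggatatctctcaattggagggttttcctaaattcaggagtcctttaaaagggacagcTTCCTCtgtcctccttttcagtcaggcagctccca
Stab1, chr14:31168642-31168891, minus strand: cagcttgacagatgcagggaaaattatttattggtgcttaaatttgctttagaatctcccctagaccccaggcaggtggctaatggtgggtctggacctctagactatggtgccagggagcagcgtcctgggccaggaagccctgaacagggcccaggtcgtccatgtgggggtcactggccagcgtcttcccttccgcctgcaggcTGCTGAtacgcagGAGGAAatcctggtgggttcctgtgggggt
F13a1, chr13:37050245-37050494, minus strand: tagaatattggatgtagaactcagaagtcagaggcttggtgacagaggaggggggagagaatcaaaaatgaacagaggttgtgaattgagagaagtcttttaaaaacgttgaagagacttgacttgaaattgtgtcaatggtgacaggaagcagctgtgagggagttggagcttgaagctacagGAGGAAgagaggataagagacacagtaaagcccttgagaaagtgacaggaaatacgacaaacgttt
Pf4, chr5:90772185-90772434, plus strand: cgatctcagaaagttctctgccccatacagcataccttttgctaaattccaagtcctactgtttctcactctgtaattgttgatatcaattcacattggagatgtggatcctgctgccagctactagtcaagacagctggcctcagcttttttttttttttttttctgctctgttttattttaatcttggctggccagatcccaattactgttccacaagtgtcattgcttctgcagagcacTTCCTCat

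RefSeq promoters were matched for 7 members, with 2 each for F13a1 and Folr2. GAGGAA was in 5 of these 9 promoters (Mrc1 3 times, and F13a1, Pf4, Cbr2 and Stab1) and in 23.3% of the 32851 promoters of the same length, and the second F13a1 promoter, not shown, had no match. TGCTGA was in 3 of the 9, of Stab1 and both of Folr2, and in 16.1% of all. Pf4, apart in its values, held the first motif as did Mrc1, Stab1 and F13a1. Cd163, a gene of the block whose promoter is not shown, held neither motif. Mrc1, whose 3 matches all read on the minus strand, had no MAF match. These are letter matches in 1 window.

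Other genes of the same macrophages and of the meninges were examined on the same mice. Of a list of 26 further border macrophage genes, 20 were tested and 0 were called by the exact test; 2 had an unadjusted p under 0.05, Slc40a1, the iron exporter ferroportin (log2 fold change −0.35, adjusted p = 0.907), and Igfbp4 (−0.33, adjusted p = 1), which was named after its values were seen. The largest differences in size were Ms4a4a at −0.42, Ccl8, a chemokine, at 0.42 and Slc40a1. Of 7 MHC class II genes, 0 were called and all lay between −0.17 (Ciita, the class II transactivator) and 0.04, with Cd74, the invariant chain, the most abundant.

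Lists of neighbouring cell types varied with the members. Schwann cell markers, which mark nerve roots, summed to 9.19 CPM in control E5386, where the other mice held 211 to 765. E1776 was next lowest, at 211. Leptomeningeal fibroblast markers, 14 genes of the meninges, summed to 237 CPM in E5386 and 410 in E1776, and to 493 to 922 in the other 6 mice. Erythroid markers summed to 131 CPM in E5386 and 72.5 in E1776, and to 162 to 427 in the other 6. MHC class II genes summed to 79.4 and 89.7 CPM in E5386 and E1776, and to 106 to 150 in the other 6. Pan-macrophage genes were not low in these mice: their mean log2(CPM + 1) was 6.71 in E1776 and 6.58 in E5386, where the other 6 mice spanned 6.10 to 6.86, and 12 microglia-enriched genes averaged 5.64 and 5.78 against 5.29 to 5.83.

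The same was seen gene by gene. As a description with no test, the mean Pearson r of a gene with the 9 members over the 8 mice had a median of 0.714 over 5 Schwann cell genes, 0.702 over 13 fibroblast genes, 0.634 over 5 erythroid genes and 0.577 over the 7 MHC class II genes. It was 0.408 over 16 further border macrophage genes, −0.119 over 12 microglia genes, −0.147 over 16 pan-macrophage genes and 0.0019 over all 16074 candidates. The 5 genes most like the members were Scube1 (mean r 0.790), Il16 (0.788), Lamb1, a laminin chain (0.778), Igfbp6 (0.775) and Frzb, a secreted Wnt antagonist (0.774). Igfbp6 was at 1.12 CPM in E5386 and 4.78 in E1776, and at 10.4 to 27.8 in the other 6 mice. The part of nerve root, meninges or blood in the level of the members was not tested.

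**Figure D4:**
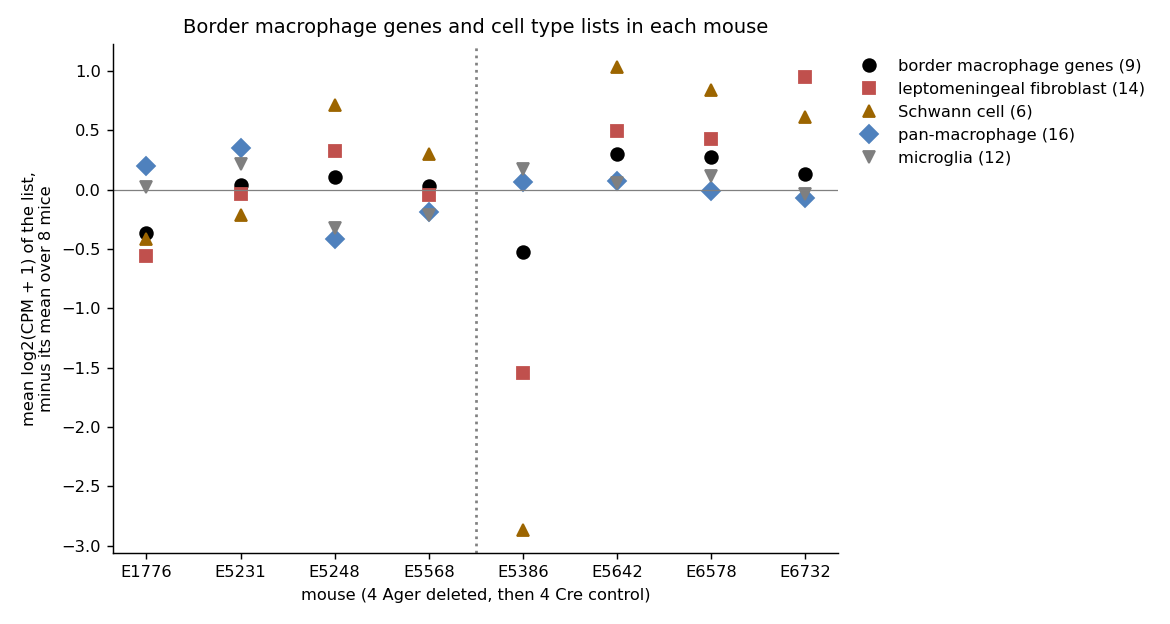
Mean log2(CPM + 1) of each gene list in each mouse, minus the list's mean over the 8 mice (number of genes in brackets). Border macrophage, leptomeningeal fibroblast and Schwann cell genes were lowest in E5386 and next lowest in E1776, while pan-macrophage and microglia genes were not.

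The genotype comparison was repeated without control E5386. This was the control with the lowest values of most members, so lower fold changes without it follow from the choice. In that fit, all 9 members had log2 fold changes below 0 (median −0.35), 3 had an unadjusted p under 0.05 by the exact test where 5.73% of 19716 genes did, and 2 did not overlap between genotypes where 8.66% of genes did. The 3 were Stab1 (log2 fold change −0.32, SE 0.094, adjusted p = 0.405), Mrc1 (−0.55, SE 0.22, adjusted p = 0.694) and F13a1 (−0.56, SE 0.25, adjusted p = 0.841), and the 2 were Mrc1 and Stab1. After adjustment 0 of 9 were called, where 0.365% of genes were. Leaving out E1776, the lowest Ager-deleted mouse for most members, moved the median the other way, to −0.067. Cd163, Cbr2 and Clec10a were then above 0, as was Folr2, which was above 0 with all 8 mice too. Over the 8 fits that each left out 1 mouse, the median lay between −0.35 (without E5386) and −0.044 (without E5642), and it was −0.20 without both E1776 and E5386, a setting chosen after seeing the data.

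Mrc1 was then 9.29 ± 2.83 CPM with Ager deleted (SD, n = 4) and 13.6 ± 0.237 in the 3 controls, and Stab1 was 38.4 ± 3.21 and 47.9 ± 5.23. The separation of Stab1 was narrow, since E5248 and control E6732 were at 43.1 and 43.0 CPM on the scaling of all 8 mice. Of the further border macrophage genes, Tgfbi, an extracellular matrix protein, was called (−0.58, SE 0.096, exact test adjusted p = 0.00173, quasi-likelihood adjusted p = 0.254); it was named after its values were seen. Without E5386, fibroblast markers had 9 of 14 genes at an unadjusted p under 0.05, all lower in Ager-deleted mice (median log2 fold change −0.64). Schwann cell markers had 4 of 6 (median −0.82), where the share over all genes was 5.73%. The same direction was seen in erythroid (4 of 5, median −0.78) and platelet markers (4 of 8, −0.86). Skeletal muscle (13 of 14, −4.59) and liver markers (5 of 5, −4.32) were also lower, but not against every control. Muscle markers summed to 1772 CPM in E5642 and to 132 in both E6578 and E6732. Liver markers summed to 686 CPM in E6732 and to 9.36 and 5.04 in E5642 and E6578. Their medians were already −5.03 and −3.91 with all 8 mice. Pan-macrophage genes had 0 of 16 (median 0.017) and MHC class II genes 0 of 7 (−0.18). Microglia-enriched genes had 2 of 12 (−0.10) and monocyte and neutrophil markers 1 of 13 (−0.31). Blood vessel endothelial markers had 3 of 10 (−0.077) and lymphatic and sinusoidal endothelial markers 2 of 5 (−0.11). All of these genes under 0.05 were lower in Ager-deleted mice. The part of any of these cell types in the values of Tgfbi and the members was not tested. Quasi-likelihood fits on all 8 mice were also run with the score of a marker list in each mouse as a covariate. The median over the members was −0.31 with the skeletal muscle score, −0.02 with the fibroblast score and −0.15 with the Schwann cell score. The last pair was chosen after seeing the data, and 0 of 9 were called in any fit. Fibroblast, Schwann cell and member scores were all lowest in E5386 and next lowest in E1776. These fits therefore do not separate the part of those cell types from other differences between mice.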

How the data were processed

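Lumbar spinal cord RNA of 8 mice was sequenced from stranded poly(A) libraries. The authors trimmed reads (Trimmomatic 0.36), aligned them to mm10 with STAR 2.7.3a, counted them per GENCODE M25 gene with featureCounts (Subread 1.6.3) and deposited raw counts; whether counting used strand is not given in the sources used here. A deposited table of normalized values was not used. Mice were grouped by the genotype in their labels.

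Counts were filtered (filterByExpr, minimum 10), TMM-normalized and tested in edgeR 4.0.16 (R 4.3.3) with the exact test named in the study's methods, whose dispersion setting is not given in the sources used here (estimateDisp without a design matrix, Benjamini-Hochberg, threshold 0.05). Standard errors and intervals are from the quasi-likelihood fit, with 6 residual degrees of freedom. Values per mouse are CPM, or log2(CPM + 1), tested by enumerating all 70 assignments of mice (exact permutation, two-sided), for which the smallest p is 0.0286. The other tools were DESeq2 1.42.0 and limma 3.58.1. Gene coordinates and lengths are from GENCODE M21 on GRCm38, an earlier release on the build of the files, and promoters from RefSeq (GRCm38.p6), which held 7 of the 9 members and not Lyve1 or Clec10a. Tests were first run on simulated data. The 28 pairs of libraries differed by more than sampling noise (chi-square per degree of freedom of at least 17.4).

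Genes named are the 9 members, Ager and Cx3cr1, list genes that passed the exact test, the 3 largest differences among further border macrophage genes, leading genes of the cell type lists and the 5 genes most like the members; others are said to have been named after their values were seen. The members and lists were chosen with earlier results of these data known. Alternatives were other normalizations, filters, dispersions and tools, a skeletal muscle covariate, other pseudocounts, and each mouse left out. Fits without E1776 and E5386 and with Schwann cell or fibroblast scores as covariates were added after seeing the data. Floors of 3 counts cover counting error only.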

Additional observations from a re-analysis of the deposited data

Results flagged for a closer look

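Among 20 groups of 4 mice (each of the 9 genes and their summed CPM, in each genotype), 3 held a mouse far from the other 3 by Dixon's criterion, where chance gives about 5% of groups. Mrc1 in control E5386 (4.02 CPM) lay far below the other controls. Cd163 in Ager-deleted E1776 (4.85 CPM) lay far below the other Ager-deleted mice. Stab1 in Ager-deleted E5248 (43.1 CPM) lay above the other 3 of its group. E5386 and E1776 were also the mice with the lowest Schwann cell, leptomeningeal fibroblast, erythroid and MHC class II genes. The part of any of these in the flagged values was not tested.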

How the results depend on the processing

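Members called numbered 0 under all 22 alternatives to the main exact test, which included other tools and covariate fits. They also numbered 0 under all 15 alternatives of the quasi-likelihood test. Folr2 was not tested with CPM over 1 in at least 4 mice, where the filter removed it. The 14 genes called over the whole table became 8 with CPM over 1 in at least 4 mice, 1 by the quasi-likelihood test, limma-voom and with the skeletal muscle, Schwann cell or fibroblast covariate, 27 by DESeq2, 78 with common and tagwise dispersions, 67 without controls E5386 and E5642 and 26 without E1776 and E5386, and ranged from 3 to 98 when 1 mouse was left out. Members at an unadjusted p under 0.05 ranged from 0 to 3 when 1 mouse was left out (3 without E5386), and numbered 1 without controls E5386 and E5642 and 2 without E1776 and E5386. Members whose genotypes do not overlap ranged from 0 to 2 (2 without E5386), and numbered 2 in both of those settings. Further border macrophage genes called ranged from 0 to 1 and numbered 1 in both. Without E5386 the shares over all genes were 5.73% at that p, 8.66% not overlapping and 0.365% called. Fewer mice leave more genes not overlapping (3.88% with all 8 mice). Shares over all genes were not taken for the settings without 2 mice, so these counts are not a result about the members. Correlated pairs of members went from 17 to 0 without the 2 mice farthest from the median, a step that by itself tends to lower r.

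Signs of small log2 fold changes changed. Cd163 was 0.012 with library size only, 0.12 by limma-voom, 0.0041 with the Schwann cell and 0.12 with the fibroblast covariate; Cbr2 was 0.0042 by limma-voom and 0.027 with the fibroblast covariate, where Clec10a was 0.069; and Folr2 was −0.15 with the muscle covariate and without controls E5386 and E5642, and −0.13 without E1776 and E5386. With 1 mouse left out, fitted values ranged from −0.26 to 0.24 for Cd163, −0.21 to 0.15 for Cbr2, −0.38 to 0.12 for Clec10a, −0.18 to 0.27 for Folr2 and −0.41 to 0.18 for Pf4. Differences of mean log2(CPM + 1) ranged from −0.54 to 0.058 for Mrc1, −0.20 to 0.27 for Cd163, −0.22 to 0.10 for Pf4, −0.12 to 0.092 for Cbr2, −0.30 to 0.021 for Stab1, −0.052 to 0.083 for Folr2 and −0.20 to 0.077 for Clec10a. The causes were not tested. No paired analysis was possible because the mice carry individual IDs and share no numbers across genotypes. Clec10a and Folr2 rest on fewer than 50 counts per mouse. Lyve1 (25 to 79 counts), Pf4 (24 to 102) and Cbr2 (35 to 63) were below 50 in some mice. Such low counts limit what a difference between genotypes could show.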
